A study of Mus musculus with 4 samples.

Results

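Splicing regulators of skeletal muscle are the RNA-binding proteins that choose which alternative exons enter muscle transcripts, and 10 of them were read out here from the 51826 rows of a gene-level count table: Rbfox1 and Rbfox2, Mbnl1, Mbnl2 and Mbnl3, Celf1 and Celf2, Ptbp1, Rbm20 and Rbm24. They were taken by gene symbol, and each symbol stood on 1 row. The table holds quadriceps muscle of 4 sedentary male C57BL6/J mice at about 20 weeks of age, 2 wild type (WT) and 2 Mef2dα2 Eko, with 1 library per mouse. Eko mice carry a germline CRISPR-Cas9 deletion of the α2 exon of Mef2d, so the exon is missing from every cell type and not from muscle alone, and WT mice came from crosses of heterozygous animals and were littermates of Eko mice. The founder line that gave these Eko mice is not given in the sources used here. The study names RBFOX and MBNL factors as regulators of this exon. The comparison asks whether muscle that has lost the exon differs in the RNA levels of the 10 splicing regulators.

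Alternative exons of muscle are set by opposing and cooperating RNA-binding proteins that sit in or beside the exon. Muscleblind-like (MBNL) and RBFOX proteins rise in activity as muscle matures and favour adult exons, whereas CELF and polypyrimidine tract-binding (PTB) proteins favour fetal or non-muscle patterns and fall after birth in striated muscle. In myotonic dystrophy, MBNL proteins are sequestered by expanded repeat RNA and CELF1 rises, and adult exons return to fetal choices. RBM20 controls titin splicing, and RBM24 promotes the inclusion of muscle exons. Mef2d, which encodes a transcription factor of the myocyte enhancer factor 2 (MEF2) family, carries a pair of mutually exclusive exons, the ubiquitous α1 and the muscle-specific α2.

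The exons that tie RBFOX and MBNL proteins to the Eko mice are the Mef2d α exons. They lie in coding sequence on chromosome 3 of GRCm38, plus strand, 49 bases apart. In the GENCODE M21 annotation the α1 exon (chr3:88158034-88158171, 138 bases) stands in 3 coding transcripts, and the α2 exon (chr3:88158221-88158355, 135 bases), the one deleted in Eko mice, stands in 1. The 54-base coding exons of Mbnl1 (chr3:60614683-60614736, plus strand) and Mbnl2 (chr14:120395712-120395765, plus strand) are shown with them because MBNL proteins act on their own family's transcripts through such exons. Capitals mark matches, on the transcribed strand, to the letters bound by MBNL proteins (TGCT and TGCC, or, starting with C instead of T, CGCT and also CGCC) or to those bound by RBFOX proteins (GCATG), and the sequences are those of the annotated transcripts.
Mef2d α1: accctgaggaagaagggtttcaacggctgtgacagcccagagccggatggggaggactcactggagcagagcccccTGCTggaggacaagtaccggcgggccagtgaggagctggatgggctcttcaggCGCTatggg
Mef2d α2: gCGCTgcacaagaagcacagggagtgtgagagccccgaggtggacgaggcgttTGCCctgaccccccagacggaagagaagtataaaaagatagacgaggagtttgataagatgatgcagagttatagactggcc
Mbnl1 54-base exon: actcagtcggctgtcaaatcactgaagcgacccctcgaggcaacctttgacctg
Mbnl2 54-base exon: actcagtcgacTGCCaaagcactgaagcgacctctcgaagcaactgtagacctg

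Each Mef2d α exon held 2 matches to the MBNL letters, close to the mean of 2.1 over the 1246 annotated internal coding exons of 138 bases, of which 85.1% held at least 1, and of 2.03 over the 1248 of 135 bases, of which 84.7% did. The 54-base exons of Mbnl1 and Mbnl2 were identical at 46 of 54 bases (85.2%), and of these exons that of Mbnl2 held 1 MBNL match and that of Mbnl1 none, against 43.2% of 1209 internal coding exons of 54 bases with at least 1. None of the 4 exons held GCATG, which stood in 14.7% of exons of the length of α1, 10.4% of those of the length of α2 and 3.97% of those of 54 bases. The letters TCTT, bound by PTB proteins and by RBM20, occurred once in α1 and not in α2, against 44.6% and 43.6% of exons of their lengths. GTGTG, bound by RBM24, occurred once in α2 and not in α1, against 17.1% and 16.5%. TGTGT, bound by CELF proteins in a run that can overlap GTGTG, was found in neither exon, against 15.4% of exons of the length of α2 and 14.8% of those of α1. These matches describe the letters inside the exons only. The introns, where many of these proteins bind, were not searched.

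Library totals lay between 72626757 and 85176059 expected counts, and 3 counts, the floor used here, equal 0.0348 to 0.0419 CPM. CPM are counts per 1000000 counts of the library, with library totals scaled by the TMM method. Skeletal myofibre markers held 131000 to 136000 CPM in total in each library, and all 10 of them were detected. Myh4, the fast myosin heavy chain, made up the largest part of that total. Myh2 (1580 and 1710 CPM in WT, 1260 and 1040 CPM in Eko mice, log2 fold change -0.51, adjusted p = 0.161) and Myh1 (4970 and 3980 CPM against 3480 and 3120 CPM, -0.44, adjusted p = 0.261), the other adult fast myosins, were lower in both Eko mice without passing the test. Of the 10 markers, 3 were lower in both Eko mice, against 23% of all genes tested, and 3 higher in both, against 20.8%. The log2 fold change was positive for 7 of the 10. The part of these differences in the levels of the regulators was not tested. By counts, WT replicate 1 stood furthest from the other libraries: chi-square values of its counts against another library, divided by the degrees of freedom, were 119 or more, whereas the other 3 libraries gave 35.5 to 42.0 among themselves. In a principal component analysis no single library stood apart, with WT replicate 1 and Eko replicate 2 at opposite ends of the first component, at -32.6 and 34.9, and Eko replicate 1 apart on the second, at 35.1. Each result is therefore given with the range over leaving out 1 mouse wherever a mouse turned its direction or call. Mef2d itself was read as 259 and 227 CPM in WT and 252 and 241 CPM in Eko mice, and since the table has 1 value per gene it cannot show exon choice or check the deletion.

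The regulators differed little between the genotypes. Of the 10, 9 had enough counts to be tested, and none passed an adjusted p of 0.05 in edgeR's quasi-likelihood test, where 67 of the 16120 genes tested passed, or 0.416%. That number of genes rose to 126 without Eko replicate 2, to 204 without Eko replicate 1 and to 299 without WT replicate 2. At an unadjusted p under 0.05 stood 2 regulators, Mbnl1 and Celf2, against 11.6% of all genes tested. DESeq2 called 1 of the regulators, Mbnl1, against 2.08% of the genes it tested, and edgeR without a filter on low counts called Mbnl1 as well, against 3.25%. Both Eko mice lay above both WT mice for 4 of the 9 (Mbnl1, Celf2, Rbfox1 and Rbm24), against 20.8% of genes tested, and below both for 1 (Ptbp1), against 23% of genes tested. The groups overlapped for the other 4. The log2 fold change was positive for 6 and negative for 3, with a median of 0.1 against -0.01 over all genes tested, and the median absolute log2 fold change was 0.12 against 0.14. The 95% intervals of the 9 lay between -0.36 and 0.49 on the log2 scale, so a change of more than 1.4-fold lay outside the interval of each tested regulator. In whole muscle, fewer cells of a type and less RNA per cell cannot be told apart.

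**Figure D1:**
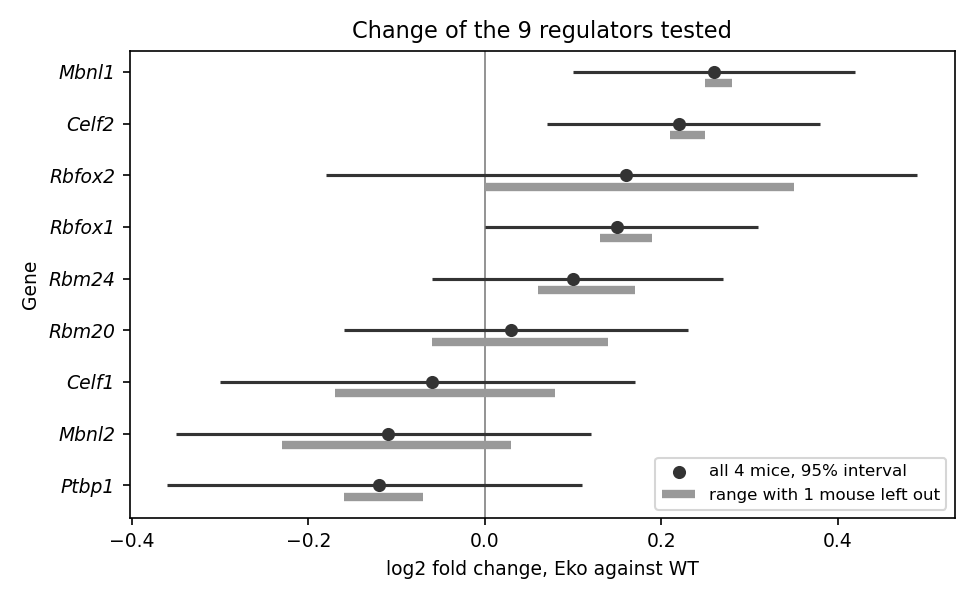
Log2 fold change of the 9 tested regulators in Eko against WT quadriceps (x axis), 1 gene per row, with points for the fit to all 4 mice, thin lines for the 95% interval and grey bars for the range when 1 mouse was left out. Mbnl1 and Celf2 have intervals above 0, and the grey bars of Rbfox2, Rbm20, Celf1 and Mbnl2 reach both sides of 0.

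Mbnl1, the main muscleblind of skeletal muscle and the protein lost to repeat RNA in myotonic dystrophy, lies on chromosome 3 (chr3:60472830-60629750, plus strand, GRCm38) with 25 annotated transcripts, 14 of them coding. It was counted at 35394 and 36476 in WT and 47582 and 38983 in Eko mice, or 466 and 451 CPM against 552 and 545 CPM. Both Eko mice stood above both WT mice, and the gap between the groups was larger than the spread within either. Mean levels were 459 ± 10.9 CPM in WT and 549 ± 4.84 CPM in Eko mice (SD, n = 2 each), so the Eko level was 120% of the WT level. The log2 fold change was 0.26 (SE 0.07), with a 95% interval of 0.10 to 0.42 and an unadjusted p of 0.00628, and it did not pass the adjustment over all genes (adjusted p = 0.232, edgeR). Over 11 alternatives its adjusted p ranged from 0.0415 to 0.478, under 0.05 in 2 of them: DESeq2 (0.0415) and edgeR with no filter (0.0477). Leaving out 1 mouse gave 0.25 to 0.28. The longest transcript of Mbnl1 has a GC content of 39.7%, and the log2 fold change was 0.19 (adjusted p = 0.416) after each library's trend with GC content was removed and 0.16 (adjusted p = 0.47) after that with transcript length. The part of these trends in the difference was not tested further.

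Mbnl2, the related muscleblind that is best known for splicing in brain and that acts beside Mbnl1 in muscle, lies at chr14:120275669-120431697 on the plus strand. It was read at 206 and 244 CPM in WT and 197 and 220 CPM in Eko mice. The groups overlapped, since Eko replicate 2 stood above WT replicate 1. The log2 fold change was -0.11 (SE 0.10), with an interval of -0.35 to 0.12 (adjusted p = 0.715), and it turned to 0.03 without WT replicate 2. The gene Gm26679 on the other strand of Mbnl2 had 1 to 14 counts in a library. Mbnl3, which is known from proliferating myoblasts and regenerating muscle, is on chromosome X (chrX:51117269-51206532, minus strand) and was near the floor, its reads numbering 4 and 3 among WT mice and 4 and 8 among Eko mice. It was too low to test, and a difference in it was not detectable at this depth.

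**Figure D2:**
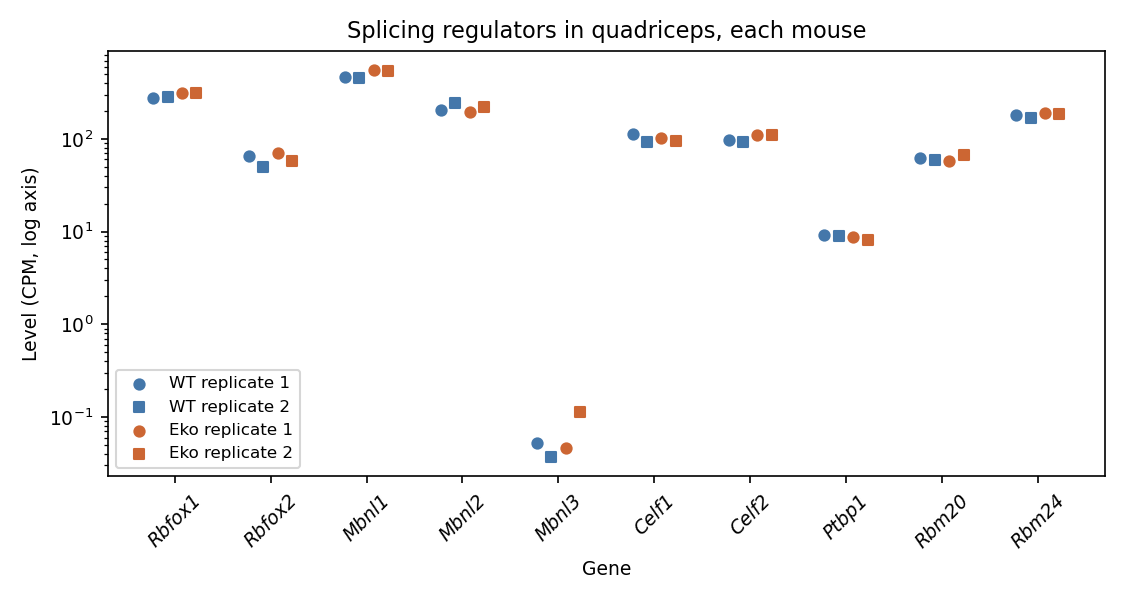
Level of each of the 10 regulators in each mouse, in TMM-scaled CPM on a log axis, with WT in blue and Eko in orange, circles for replicate 1 and squares for replicate 2. Mbnl1 is the highest in CPM, at 451 to 552, Mbnl3 lies near the floor of 3 counts, and the genotypes lie close together for every gene above it.

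Rbfox1, the RBFOX protein that predominates in adult muscle and brain, is the longest gene of the set (chr16:5885355-7411526, plus strand, 1526.2 kb, 8 annotated transcripts). It was counted at 21018 and 23095 in WT and 27086 and 22248 in Eko mice, or 277 and 286 CPM against 314 and 311 CPM. Both Eko mice stood above both WT mice, and the Eko mean of 313 ± 2.19 CPM was 111% of the WT mean of 281 ± 6.08 CPM (SD, n = 2 each). Rbfox1 had a log2 fold change of 0.15 (SE 0.06), the interval ran from just under 0 to 0.31, the unadjusted p was 0.0504 and the adjusted p 0.432, so the test was not passed. Rbfox2, the more widely expressed relative (chr15:77078990-77307004, minus strand), was read at 64.6 and 50.1 CPM in WT and 70.1 and 57.6 CPM in Eko mice. In each genotype replicate 1 was the higher, and the groups overlapped. Its log2 fold change of 0.16 (SE 0.14) had the widest interval of the 9, from -0.18 to 0.49 (adjusted p = 0.716), and it moved to 0.35 without WT replicate 1 and to -0.00092 without WT replicate 2.

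Celf1, which opposes MBNL proteins at many muscle exons and rises in myotonic dystrophy, lies at chr2:90940382-91019497 on the plus strand. It was read at 112 and 93.0 CPM in WT and 101 and 94.7 CPM in Eko mice, with both Eko mice inside the WT range. Its log2 fold change was -0.06 (SE 0.10), with an interval of -0.30 to 0.17 (adjusted p = 0.852), and it turned to 0.08 without WT replicate 1. Celf2, its relative in heart, brain and muscle, lies on the same chromosome (chr2:6539694-7509563, minus strand, 969.9 kb, 28 annotated transcripts). It was counted at 7325 and 7546 in WT and 9510 and 7962 in Eko mice, or 96.5 and 93.3 CPM against 110 and 111 CPM. Both Eko mice stood above both WT mice by more than the spread within either group, with an Eko mean of 111 ± 0.72 CPM, 117% of the WT mean of 94.9 ± 2.28 CPM (SD, n = 2 each). The log2 fold change of Celf2 was 0.22 (SE 0.06), with an interval of 0.07 to 0.38 and an unadjusted p of 0.0103, and it did not pass the adjustment over all genes (adjusted p = 0.277, edgeR, and 0.156 to 0.628 over the alternatives). The longest transcript of Celf2 has a GC content of 42.1%, and the gene's log2 fold change was 0.17 (adjusted p = 0.45) with the GC trend removed and 0.10 (adjusted p = 0.628) with the length trend removed. The gene Gm26565 on its other strand had no counts.

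Ptbp1, the polypyrimidine tract-binding protein that represses tissue-specific exons in dividing and non-muscle cells, is a short gene of 10.3 kb (chr10:79854427-79864771, plus strand). It had the lowest level of the regulators tested, at 9.24 and 8.88 CPM in WT and 8.63 and 8.01 CPM in Eko mice. Both Eko mice lay below both WT mice, the only regulator tested of which this was so, and the log2 fold change of -0.12 (SE 0.10, interval -0.36 to 0.11) did not pass the test (adjusted p = 0.687). Reads of Ptbp1 are less secure than those of the other 9 regulators, since 1.73% of its stretches of 75 bases also occur in the transcripts of Gm4900, whereas none of the stretches of the others occur in another gene, and the gene E130317F20Rik on its other strand had 219 to 312 counts.

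Rbm20, the titin splicing factor that is mutated in a familial dilated cardiomyopathy, lies at chr19:53677306-53867080 on the plus strand. It was read at 62.3 and 59.7 CPM in WT and 58.4 and 66.6 CPM in Eko mice, with the WT mice between the Eko mice. Its log2 fold change of 0.03 (SE 0.08) had an interval of -0.16 to 0.23 (adjusted p = 0.908), and it turned to -0.06 without Eko replicate 2. Rbm24, which promotes muscle exons in heart and skeletal muscle and is needed for sarcomere assembly, lies at chr13:46418434-46431095 on the plus strand. It was read at 182 and 167 CPM in WT and 188 and 187 CPM in Eko mice, both Eko mice above both WT mice. The difference between the means, 187 ± 0.369 CPM against 175 ± 10.7 CPM (SD, n = 2 each), was close to the spread of the WT mice, and the log2 fold change of 0.10 (SE 0.07, interval -0.06 to 0.27) did not pass the test (adjusted p = 0.62).

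Levels of different regulators can be compared only per length, as CPM per kilobase of annotated exon, with the mean and SD over all 4 mice. On that scale Rbfox1 was highest at 67.5 ± 4.2, followed by Rbm24 at 51.8 ± 2.78, Mbnl1 at 26.9 ± 2.79 and Mbnl2 at 18.1 ± 1.7. Below them came Celf1 at 11.9 ± 0.999, Rbm20 at 9.09 ± 0.534, Rbfox2 at 7.45 ± 1.07 and Celf2 at 3.97 ± 0.359. The lowest were Ptbp1 at 1.83 ± 0.109 and Mbnl3 at 0.00709 ± 0.00387. Rbm20 and Rbfox2 were the one pair of neighbours in this order whose ranges over the 4 mice overlapped. The order depends on the length used: per kilobase of the longest annotated transcript, a scale chosen after seeing the data, Mbnl1 (89.0) stood above Rbm24 (58.7) and Celf2 (11.6) above Rbfox2 (8.77), while Rbfox1 (97.0) remained highest and Ptbp1 (2.74) and Mbnl3 (0.0133) lowest. Within families, per kilobase of annotated exon, Rbfox1 made up 88.8% to 91.3% of the RBFOX level in each mouse, Mbnl1 54.2% to 64.2% of the MBNL level, Mbnl3 at most 0.027% of it, and Celf1 72.3% to 78.0% of the level of Celf1 and Celf2 together. Per kilobase of the longest transcript the shares were 90.6% to 92.8% for Rbfox1 and 64.5% to 73.3% for Mbnl1, but 49.0% to 56.6% for Celf1, so which of Celf1 and Celf2 is the higher is not settled by these data.

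Splicing outcomes often follow the balance between related or opposing regulators, so 4 ratios of counts were formed within each library, where scaling between libraries plays no part. The ratio of Mbnl1 to Mbnl2 was 2.26 and 1.85 in WT and 2.80 and 2.48 in Eko mice, so both Eko mice were higher, by 0.37 on the log2 scale. The ratio of Celf2 to Celf1 was 0.865 and 1.0 in WT and 1.09 and 1.18 in Eko mice, again without overlap, with a log2 difference of 0.28. With 2 mice against 2 the smallest two-sided exact permutation p is 0.333, which both ratios had, so this test could not reach significance for any ratio, and no other test was run on them. The ratio of Rbfox1 to Rbfox2 overlapped, at 4.29 and 5.70 in WT and 4.48 and 5.40 in Eko mice (log2 difference -0.01, exact permutation p = 1.0). The ratio of Mbnl1 and Mbnl2 together to Celf1 and Celf2 together, the opposing pair of families, also overlapped, at 3.23 and 3.73 in WT and 3.54 and 3.71 in Eko mice (log2 difference 0.06, exact permutation p = 1.0).

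**Figure D3:**
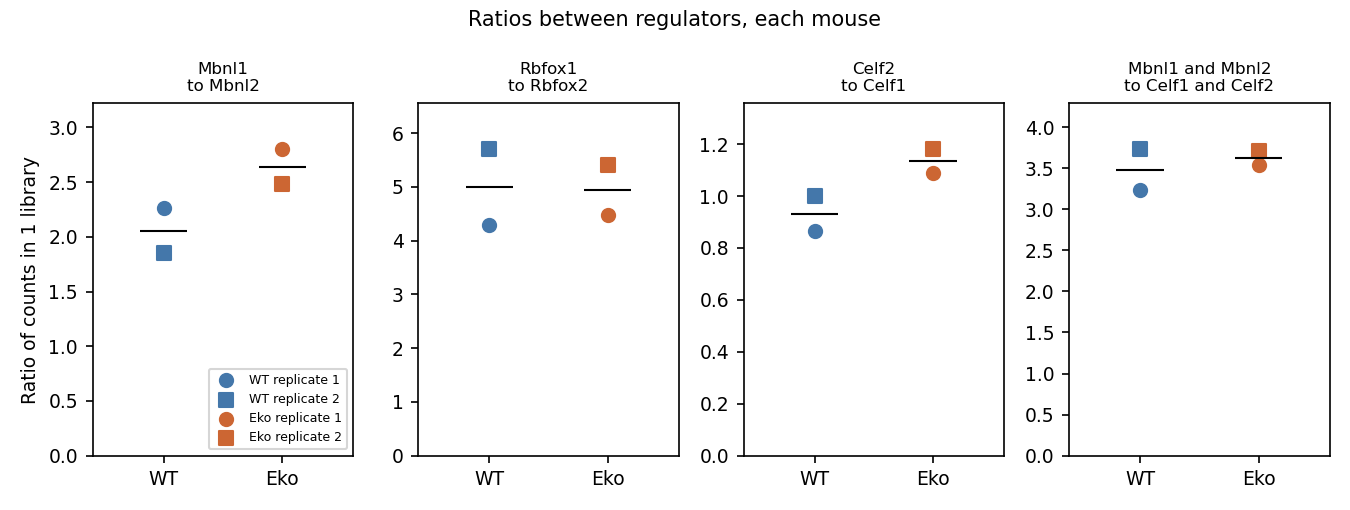
Ratio of counts between regulators within each library (y axes from 0), with WT in blue and Eko in orange, circles for replicate 1, squares for replicate 2 and bars for the mean of a genotype. The Eko mice lie above the WT mice for Mbnl1 to Mbnl2 and for Celf2 to Celf1, and the genotypes overlap for Rbfox1 to Rbfox2 and for the MBNL to CELF ratio.

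Mbnl1 had the smallest unadjusted p of the regulators, and the genes whose levels over the 4 libraries most resembled it were sought among the 16053 tested genes with a count in every library, by the root mean square difference of centred log2 CPM. The nearest was Cxxc4 (0.00875), a regulator of Wnt signalling that was very low, at 0.329 and 0.322 CPM in WT and 0.394 and 0.392 CPM in Eko mice. Its log2 fold change was 0.27 (adjusted p = 0.822, edgeR). The distance makes no allowance for counting error, which is larger at so low a level. Next came Cdkn1b (0.0117), which encodes the cell cycle inhibitor p27, at 31.3 and 29.9 CPM in WT and 37.2 and 36.0 CPM in Eko mice. Strbp (0.0125), a double-stranded RNA-binding protein, followed at 24.7 and 24.4 CPM in WT and 29.3 and 29.0 CPM in Eko mice. Among the regulators, Celf2 was nearest to Mbnl1 (0.0204, with 18 genes nearer), and Rbfox1 was next (0.062, with 487 genes nearer). With 4 libraries such likeness is a description of these mice.

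Promoter sequence of RefSeq (GRCm38.p6) was at hand for 8 of the 10 regulators, in 14 windows of 300 bases around annotated starts, and was searched on both strands for the MEF2 consensus since Mef2d is the gene altered. None of the 14 held the consensus, against 3.19% of all 32851 windows, which says only that these letters are not in these windows.

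Beyond the 10, 81 other splicing regulators were read out on 82 rows, of which 76 were tested. None passed an adjusted p of 0.05 in edgeR, 4 had an unadjusted p under 0.05, against 11.6% of all genes tested, DESeq2 called none, and the lowest adjusted p was 0.372. Their median log2 fold change was 0.02, with 42 of 76 positive, against 48.7% positive among all genes tested. Of the 8 close relatives of the 10 regulators, 5 were tested. Rbm38, the relative of Rbm24, was read at 154 and 133 CPM in WT and 125 and 122 CPM in Eko mice (log2 fold change -0.21, adjusted p = 0.411). Ptbp2, the neuronal relative of Ptbp1, had a log2 fold change of 0.13 (adjusted p = 0.658) and Celf4, at 0.119 to 0.29 CPM, one of 0.67 (adjusted p = 0.688). Rbfox3, the neuronal RBFOX protein, had 1 to 4 counts in a library, Celf5 had 1 to 10 and Celf6 none.

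Of the SR proteins, which favour exon inclusion, and the kinases that phosphorylate them, 14 of 19 tested had a positive log2 fold change, with a median of 0.09. Srpk2, an SR protein kinase, was read at 37.5 and 37.0 CPM in WT and 43.6 and 41.3 CPM in Eko mice (log2 fold change 0.19, adjusted p = 0.372). Tra2b and Srsf10, both SR-like splicing factors, had log2 fold changes of 0.20 (adjusted p = 0.437) and 0.15 (adjusted p = 0.477). Of the 22 heterogeneous nuclear ribonucleoproteins (hnRNP), which often repress exons, 13 were positive with a median of 0.03, and the smallest p values were those of Hnrnpd (log2 fold change 0.14, adjusted p = 0.492), Pcbp1 (-0.15, adjusted p = 0.50) and Hnrnph3 (-0.18, adjusted p = 0.542). Of 30 tested rows of other splicing regulators 13 were positive, with a median of -0.04. Among them Raver2, a corepressor of PTB proteins, was read at 3.26 and 2.29 CPM in WT and 1.96 and 1.92 CPM in Eko mice (log2 fold change -0.51, adjusted p = 0.422). Fxr1, an RNA-binding protein with its own muscle-specific exons, had a log2 fold change of 0.16 (adjusted p = 0.429), and Zfp638 one of 0.17 (adjusted p = 0.455).

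**Figure D4:**
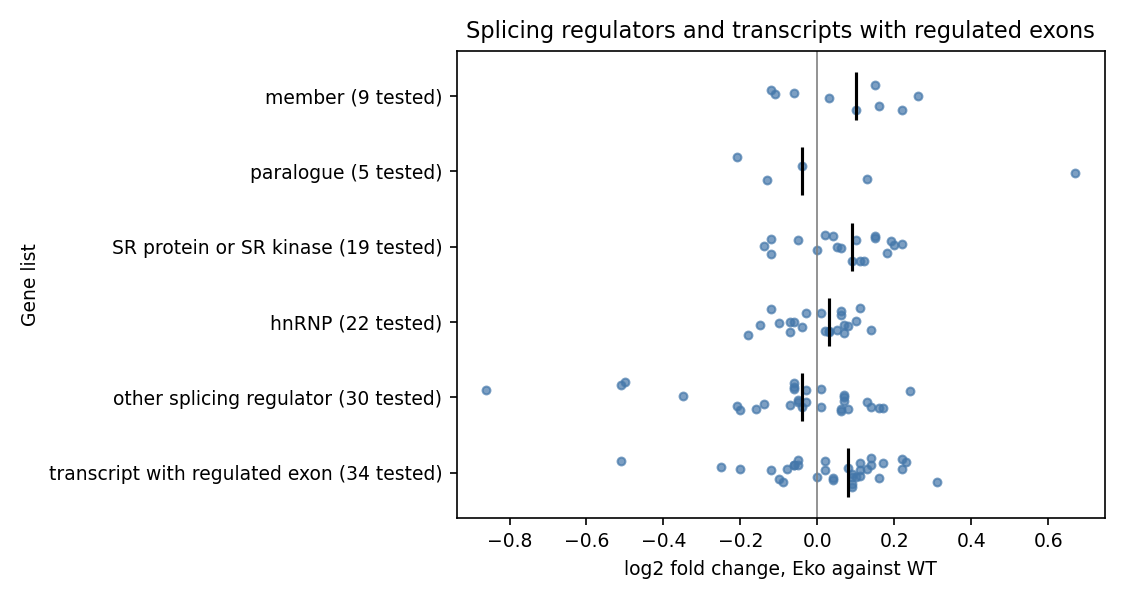
Log2 fold change in Eko against WT quadriceps (x axis) for each tested row of the 10 regulators, their relatives, SR proteins and kinases, hnRNPs, other splicing regulators and transcripts with regulated exons, with 1 point per row of the table and a bar for the median of each list. The medians lie between -0.04 and 0.1, and none of the points passed the adjusted test.

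Transcripts that carry exons under the control of these regulators were read at gene level, which counts all isoforms together. Of 34 such transcripts, Mef2d among them, all were tested. None passed an adjusted p of 0.05 in edgeR, 6 had an unadjusted p under 0.05, against 11.6% of all genes tested, and DESeq2 called none. With no filter on low counts edgeR called 2, Dmd and Tnnt2, against 3.25% of all genes in that fit. For 23 of 34 the log2 fold change was positive, against 48.7% of all genes tested, with a median of 0.08 and a range of -0.51 to 0.31. Both Eko mice stood above both WT mice for 14 of them, against 20.8% of all genes tested, and below both for 6, against 23%. Svil, which encodes the membrane-associated protein supervillin, was read at 305 and 299 CPM in WT and 351 and 354 CPM in Eko mice (log2 fold change 0.22, adjusted p = 0.277). Dmd, which encodes dystrophin, was read at 127 and 133 CPM in WT and 147 and 176 CPM in Eko mice (log2 fold change 0.31, adjusted p = 0.30). With no filter the adjusted p of Dmd was 0.00916 (edgeR). Its log2 fold change was 0.45 without Eko replicate 1, a fit in which Eko replicate 2 was the Eko library left. Clcn1, the muscle chloride channel whose missplicing causes myotonia in myotonic dystrophy, was read at 178 and 154 CPM in WT and 196 and 195 CPM in Eko mice (log2 fold change 0.23, adjusted p = 0.364). These 3, which had the smallest p values, are among the 14 that were higher in both Eko mice. The next 2 by p, Pkm (pyruvate kinase, log2 fold change -0.20, adjusted p = 0.369) and Ldb3 (a Z-disc protein, -0.25, adjusted p = 0.40), were lower in both Eko mice and are named after their values were seen. Tnnt2, cardiac troponin T, named here after its values were seen, was read at 15.3 and 7.68 CPM in WT and 9.14 and 7.02 CPM in Eko mice. Its log2 fold change was -0.51, with an adjusted p of 0.569 in the main fit and 0.00177 with no filter (edgeR). Without WT replicate 2 the log2 fold change was -0.91, a fit in which WT replicate 1 was the WT library left.

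Markers of other cell types varied among these muscles. Summed adipocyte markers (Adipoq, Plin1, Cfd, Lep and Cidec) lay at 80.1 and 30.7 CPM in WT and 25.8 and 11.2 CPM in Eko mice, and summed macrophage markers at 18.4 and 15.3 CPM in WT and 12.8 and 8.82 CPM in Eko mice, with 4 of 5 macrophage genes lower in both Eko mice, against 23% of all genes tested. The largest single part of the adipocyte sum in each library was Cfd (48.5 and 16.9 CPM in WT, 8.61 and 5.72 CPM in Eko mice). Cfd was the 1 adipocyte gene of 5 that was lower in both Eko mice, against 23% of all genes tested, and the other 4 overlapped. Schwann cell markers lay at 15.1 and 16.6 CPM in WT and 18.1 and 22.7 CPM in Eko mice, with 3 of 4 higher in both Eko mice, against 20.8% of all genes tested. Satellite cell (17.0 to 20.2 CPM), smooth muscle (53.7 to 68.1 CPM), endothelial (136 to 159 CPM), fibroblast (279 to 358 CPM) and cardiac (116 to 218 CPM) sums overlapped between the genotypes. Higher in both Eko mice were 2 of 5 satellite cell genes (Myf5 and Calcr) and 1 of 4 smooth muscle genes (Myh11), against 20.8% of all genes tested. The log2 fold change was positive for 4 of 5 satellite cell genes, all 4 smooth muscle genes and 2 of 5 endothelial genes. Within the fibroblast list, Dpt, Col3a1 and Pdgfra, 3 of 5, were lower in both Eko mice (log2 fold changes -0.31, -0.40 and -0.26, adjusted p from 0.221 to 0.327), while Dcn and Col1a1 overlapped. Within the cardiac list, Actc1, cardiac actin, was at 96.7 and 55.9 CPM in WT and 150 and 163 CPM in Eko mice (1.04, adjusted p = 0.172), while the other 4 had negative log2 fold changes and overlapped. No marker was at 0 in all libraries and none passed the adjusted test. The part of these cells in the levels of Mbnl1, Celf2 and Rbfox1 was not tested.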

How the data were processed

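Quadriceps RNA of 4 mice was selected for polyA, prepared with a stranded kit and sequenced. The authors aligned reads to mm10 (GRCm38) with STAR 2.6.1a, per the submitters' processing notes, and deposited expected counts per gene from RSEM with an Ensembl GRCm38 annotation, without normalization. The strand setting used for counting is not given in the sources used here. All deposited values were whole (0 were not), so rounding changed none. Total counts were 76748043 and 79771613 (WT) and 85176059 and 72626757 (Eko). The 3-count floors cover counting error only.

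Groups came from the sample labels. In R 4.3.3, edgeR 4.0.16 (quasi-likelihood test, genotype as the sole term, TMM, default filter on low counts) tested 16120 of 24621 genes with any count, with Benjamini-Hochberg adjustment over all of them and a threshold of 0.05. Log2 fold changes are Eko against WT with a prior count of 0.125, and SEs and 95% intervals come from the F statistic, which includes the spread between mice. Alternatives were DESeq2 1.42.0 (the test of the study's methods), RLE scaling, no filter, at least 1 CPM in 2 libraries, a replicate block, GC or transcript length trends removed (96.8% of tested genes had values), and leaving out each mouse. Positions, exons, lengths and GC content came from GENCODE M21 on GRCm38, which is not the authors' annotation. The scripts were tested on simulated data.

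The members and gene lists were chosen with earlier results of these data known. All 10 members are named, from each other list the genes that passed or else the 3 with the smallest p, and the 3 genes most like the member with the smallest p. Exon-level reads were not analysed here.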

Additional observations from a re-analysis of the deposited data

How the results depend on the processing

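The fits with alternative settings gave 99 log2 fold changes of the 9 tested regulators, of which 93 kept the direction and the side of the threshold. The direction turned in 4, all with 1 mouse left out: Rbfox2 (range 0.35 to -0.00092) and Mbnl2 (-0.23 to 0.03) without WT replicate 2, Celf1 (-0.17 to 0.08) without WT replicate 1 and Rbm20 (0.14 to -0.06) without Eko replicate 2. The other 2 were Mbnl1, so that the number of regulators called was 1 with DESeq2 and 1 with no filter, against 0. Over all genes, 67 were called, against 284 with DESeq2, 799 with no filter, 23 with at least 1 CPM in 2 libraries, 44 with GC trends removed and 99 to 299 with 1 mouse left out (99 without WT replicate 1, 299 without WT replicate 2, 204 without Eko replicate 1, 126 without Eko replicate 2). With 1 mouse left out, a genotype has 1 library, which is assumed to vary like the other genotype's. Of 34 transcripts with regulated exons, 2 were called with no filter (Tnnt2 and Dmd), against 3.25% of all genes in that fit and 0 transcripts in the main fit. No alternative called another of the 81 further splicing regulators. The cause of these differences was not tested.

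The study describes the WT and Eko mice as littermates, but no source used here ties a replicate number to a litter, so the numbers were not taken to pair the mice. Deviations of same-numbered mice from their genotype means had a correlation of 0.0909. A replicate block raised the number of genes called to 186 and changed no call of a regulator. With 2 mice per genotype, most intervals of the regulators include 0 and are wide enough to hold changes in either direction.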
